A study of Homo sapiens with 2 samples.

Results

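The KRAB zinc finger clusters of chromosome 19 are 6 stretches that hold 281 of the 1780 H3K27ac peaks called on this chromosome in LOUCY, and of the 52203 called in the genome. Peaks were taken by position alone: a peak belonged to a cluster if its midpoint lay between the borders of the cluster in hg19. The borders were 11.7 to 12.65 Mb (cluster 1, band 19p13.2), 19.7 to 24.4 Mb (cluster 2, from the end of 19p13.11 through 19p12) and 36.7 to 38.4 Mb (cluster 3, 19q13.12 and the start of 19q13.13). They were 44.3 to 45.0 Mb for cluster 4 (19q13.31), 52.35 to 54.05 Mb for cluster 5 (19q13.41 and 19q13.42) and 56.1 to 59.1 Mb for cluster 6 (the end of 19q13.42 through 19q13.43). Every value below is compared with the 1499 peaks in the rest of chromosome 19.

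LOUCY is an established human T-cell acute lymphoblastic leukaemia (T-ALL) line, grown in RPMI medium with serum and with no treatment named in the labels, and acetylation of histone H3 at lysine 27 (H3K27ac) marks active promoters and enhancers. One group was the immunoprecipitated chromatin (1 library, 54357332 tags kept by the peak caller) and the other the input DNA of the same line (1 library, 71932640 tags kept). There were no replicates, so no difference was tested, and each interval covers only the scatter or the counting of peaks within this library. Neighbouring peaks are not independent, which makes these intervals too narrow.

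KRAB zinc finger genes encode DNA-binding repressors, in which an array of C2H2 zinc fingers reads the DNA sequence and a KRAB domain recruits the corepressor TRIM28. TRIM28 in turn brings in the histone methyltransferase SETDB1, and many of the targets are transposable elements. The genes multiplied by tandem duplication and stand side by side in clusters, in which the zinc finger exons of many members carry the repressive mark H3K9me3 while their promoters are open. In the RefSeq gene table, 260 of the 1451 protein-coding genes of chromosome 19 (17.9%) have a zinc finger symbol of the ZNF, ZFP, ZSCAN, ZIM or ZIK series.

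The promoters of the 3 cluster genes whose hg19 positions were used are shown first, because they set single peaks beside a gene and its base composition. ZNF443, a KRAB zinc finger gene, lies in cluster 1 at chr19:12540520-12551835 of hg19 on the minus strand. EPN1, the gene of the endocytic adaptor epsin 1, lies in cluster 6 at chr19:56186561-56207133 on the plus strand. A1BG, a plasma glycoprotein gene made mainly in the liver, lies in cluster 6 on the minus strand, with transcripts at chr19:58858172-58864865 and chr19:58859832-58874214. The 250 bases before the RefSeq start site are given 5′ to 3′ on the gene's strand, from GRCh38.p14, with each CpG dinucleotide in capitals. Whether these start sites are the ones of the hg19 gene sets was not examined.
ZNF443 (chr19:12441022-12441271, minus strand): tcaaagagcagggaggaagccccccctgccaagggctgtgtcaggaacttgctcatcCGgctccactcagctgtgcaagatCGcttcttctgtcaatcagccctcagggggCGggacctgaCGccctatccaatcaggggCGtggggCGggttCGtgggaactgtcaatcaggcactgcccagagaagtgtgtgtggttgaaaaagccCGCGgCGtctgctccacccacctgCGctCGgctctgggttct
EPN1 (chr19:55674976-55675225, plus strand): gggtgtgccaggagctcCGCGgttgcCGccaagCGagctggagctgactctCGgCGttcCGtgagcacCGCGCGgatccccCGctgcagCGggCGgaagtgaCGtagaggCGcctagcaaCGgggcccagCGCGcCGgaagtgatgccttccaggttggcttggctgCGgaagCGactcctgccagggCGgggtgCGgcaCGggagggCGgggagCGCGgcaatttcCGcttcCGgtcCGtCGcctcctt
A1BG (chr19:58353493-58353742, minus strand): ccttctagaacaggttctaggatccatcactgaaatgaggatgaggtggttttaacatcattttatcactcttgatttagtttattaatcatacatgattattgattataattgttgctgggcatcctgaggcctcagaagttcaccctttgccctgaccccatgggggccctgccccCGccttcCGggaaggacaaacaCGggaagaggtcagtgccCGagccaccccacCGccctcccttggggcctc
The ZNF443 stretch had 12 CpG and 61.6% G and C, the EPN1 stretch 31 CpG and 71.2%, and the A1BG stretch 5 CpG and 50.8%.

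In hg19 a peak covered the start of ZNF443, while the start of EPN1 had none. The ZNF443 peak (chr19:12548801-12552758, hg19) was 3958 bp wide with a fold enrichment of ChIP over input of 9.78. From the start of EPN1 the nearest peak was 16.4 kb away (fold 10.4), and no peak had its midpoint in the gene. One A1BG start, at position 58864865 of hg19, had its nearest peak 3.50 kb away. The other, at position 58874214, lay in a peak of 4424 bp (chr19:58872679-58877102) with a fold of 6.96. Whether another gene shares that start was not examined. Outside the clusters, 5 of 11 genes of the same small gene sets had a peak within 1 kb of a start site. Of the zinc finger genes among these, ZNF333 had a peak of 2603 bp and fold 8.04 at its start, and ZNF562 had none within 34.0 kb. The comparison region is therefore not free of zinc finger genes.

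Peaks in the clusters were of moderate height, and few were weak. The median fold was 6.92 (95% binomial interval 6.30 to 7.25; interquartile range 4.83 to 8.65) in the clusters and 4.69 (4.30 to 5.05; interquartile range 2.71 to 7.79) in the rest of the chromosome. A fold of 6 or more, here called strong, was reached by 172 of 281 cluster peaks, 61.2% (95% Wilson interval 55.4 to 66.7). The share was 39.5% of the 1499 other peaks of chromosome 19 and 23.2% of all peaks of the genome. A fold below 3 was found for 35 cluster peaks, 12.5% (9.09 to 16.8), against 31.9% in the rest (29.6 to 34.3).

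At the top of the range the clusters did not stand higher. A fold of 10 or more was reached by 28 cluster peaks, 9.96% (6.98 to 14.0), against 11.4% of the other peaks of the chromosome and 5.21% genome-wide. The highest fold was 16.03 in the clusters and 21.6 elsewhere on the chromosome. Among peaks with a -log10 q of 10 or more the higher median of the clusters was not seen, at 7.43 in the clusters and 7.62 in the rest. The share of strong peaks was then 75.4% and 75.5%. Fold and q come from the same calls, so this filter also removes peaks of low fold from both groups.

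The authors' fold divides by the local input signal, and the input level solved from the fold and p-value of each peak was slightly higher in the clusters. The median level, on the scale of the caller's local control, was 6.50 (6.23 to 6.82) in the clusters and 5.66 (5.51 to 5.81) in the rest. The lowest level was 4.11 in both groups. Among strong peaks alone the levels were 6.86 and 6.85. The implied ChIP pileup is the value that gives the fold over this level after adding 1 to both. Its median was 50.04 (47.0 to 55.9) in the clusters and 32.2 (28.5 to 34.5) in the rest, so the pileup differed in the same direction as fold. The part of local copy number or mappability in these levels was not tested.

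Strong peaks of the clusters were narrow. The median width of the 172 strong cluster peaks was 1996.5 bp (1930 to 2218), against 3602 bp (3396 to 3853) for the 592 strong peaks elsewhere on the chromosome and 4089 bp for the 12125 of the genome. Of the strong cluster peaks, 50.6% (43.2 to 58.0) were under 2 kb wide, compared with 13.5% (11.0 to 16.5) in the rest of the chromosome and 11.7% in the genome. A width of 4 kb or more was seen in 9.30% (5.81 to 14.6) of strong cluster peaks and in 43.6% (39.6 to 47.6) of the other strong peaks of the chromosome. All 6 clusters had a median width of strong peaks below that of the rest, from 1855.5 bp in cluster 4 (n = 4) to 2672 bp in cluster 1 (n = 15). The interval of cluster 1, 1968 to 3706 bp, reached past the median of the rest, and those of clusters 2, 3, 5 and 6 ended between 2310 and 2550 bp.

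Median widths were lower in the clusters in all 4 classes of fold, with overlapping intervals in the lowest. With a fold of 6 to 10 the median width was 1956.5 bp (1865 to 2055, n = 144) in the clusters and 3214 bp (3048 to 3414, n = 421) in the rest. At a fold of 10 or more it was 2566.5 bp (2269 to 3203, n = 28) and 4755 bp (4254 to 5675, n = 171). For folds of 3 to 6 the medians were 1450 bp (1304 to 1653) and 1892 bp (1704 to 2092). Below a fold of 3 they were 568 bp (408 to 743) and 746.5 bp (708 to 804), with overlapping intervals. Read the other way, peaks of 1 to 2 kb had a median fold of 6.91 in the clusters and 3.50 in the rest, whereas peaks of 4 kb or more had 8.37 and 8.35. Spearman's rho between width and fold was 0.589 over the 281 cluster peaks and 0.756 in the rest. Cluster peaks also spanned a narrower range of each. Their ratio of upper to lower quartile was 1.88 for width and 1.79 for fold. In the rest these ratios were 4.08 and 2.88. The part of the narrower range of width and fold in the lower rho was not tested. Both quantities come from the same calls, and these coefficients are descriptions.

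**Figure D1:**
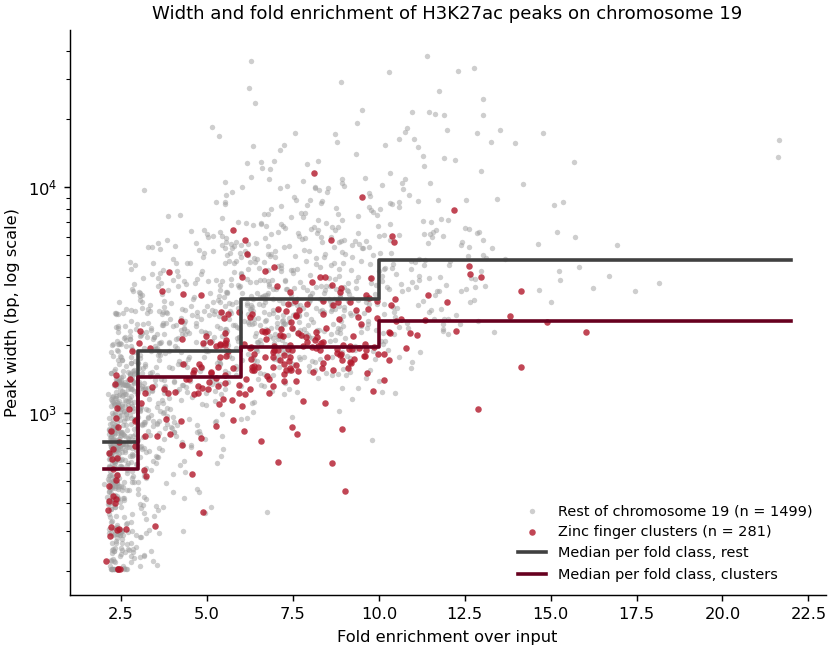
Each point is 1 H3K27ac peak of chromosome 19, with fold enrichment over input on the x axis and width in bp on a log y axis, red for the 281 cluster peaks and grey for the 1499 others. The stepped lines are the median widths per fold class (under 3, 3 to 6, 6 to 10, 10 or more), and the line of the clusters runs below that of the rest in all 4 classes.

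Over all peaks, weak ones included, the median widths lay much closer, at 1800 bp (1661 to 1930) in the clusters and 2013 bp (1872 to 2157) in the rest. The spread differed more than the median. Cluster peaks had an interquartile range of 1251 to 2351 bp, and those of the rest 890.5 to 3637.5 bp. Between 1 and 4 kb lay 75.1% (69.7 to 79.8) of cluster peaks and 50.4% (47.8 to 52.9) of the others. A width of 4 kb or more was found in 18 cluster peaks, 6.41% (4.09 to 9.90), against 21.5% of the other peaks of chromosome 19 and 19.6% of all peaks. Only 1 cluster peak, or 0.356%, was 10 kb or wider, compared with 70 in the rest (4.67%).

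The mark was also more sparsely placed than in the rest of the chromosome, though not than in the genome as a whole. The clusters had 22.04 peaks per Mb (19.5 to 24.8, exact Poisson interval) and the rest of the chromosome, without the centromere, 35.5 (33.8 to 37.4). Peaks covered 4.41% of the cluster sequence and 11.0% of the rest. The whole genome, centromeres included, had 17.2 peaks per Mb and 4.90% covered. Among peaks with a -log10 q of 10 or more, the clusters and the rest had 17.9 and 18.6 per Mb, while coverage stayed apart at 4.02% and 8.89%. The lower coverage at that threshold went with the narrower width, at medians of 1945 and 3313.5 bp.

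Neighbouring peaks stood farther apart in the clusters. The median gap between neighbours was 26.0 kb in the clusters (interquartile range 10.8 to 42.9, 275 gaps) and 10.1 kb in the rest (3.40 to 26.2, 1493 gaps). Gaps under 5 kb made up 14.5% (10.9 to 19.2) in the clusters and 32.5% (30.2 to 34.9) in the rest. Gaps of 10 to 50 kb made up 54.9% (49.0 to 60.7) and 39.7% (37.2 to 42.2). Between strong peaks alone the medians lay closer, at 37776.5 bp (34194 to 47619) in the clusters and 32201 bp (27846 to 36869) in the rest. In windows of 100 kb, 72.4% of the 127 cluster windows and 57.1% of 420 other windows held 1 to 5 peaks. More than 5 peaks were found in 4.72% and 24.5% of windows, and none in 22.8% and 18.3%.

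**Figure D2:**
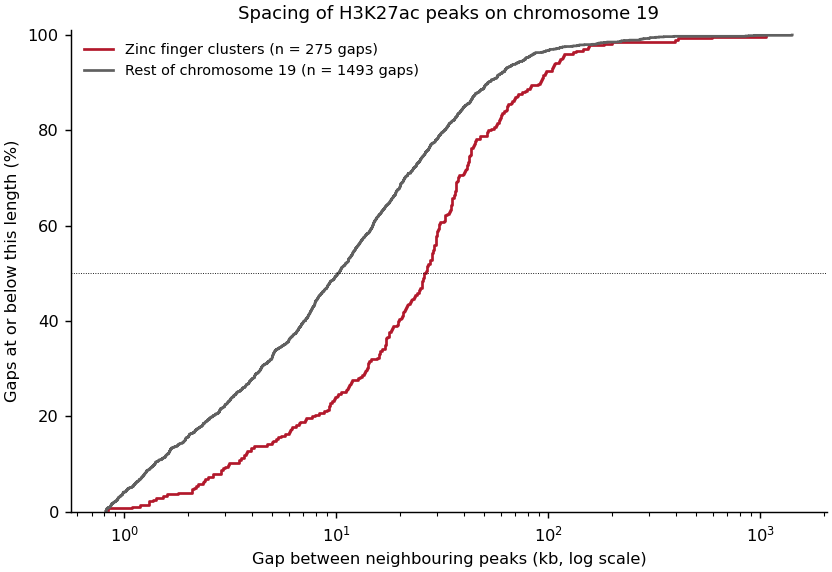
Cumulative share of gaps (y axis, %) by the gap between neighbouring peaks (x axis, kb, log scale) in the clusters (red, 275 gaps) and the rest of chromosome 19 (grey, 1493 gaps); the dotted line marks 50%. The red curve lies to the right over most of its course, crossing 50% at 26.0 kb against 10.1 kb.

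Weak peaks of the clusters often stood beside strong ones. Of the 35 cluster peaks with a fold below 3, 24 (68.6%) lay within 10 kb of a strong peak. In the rest of the chromosome 244 of 478 weak peaks (51.0%) did. The median distance to a strong peak was 3.95 kb over all 35 and 9.69 kb over all 478. No interval was computed for these shares, and that of the clusters rests on 35 peaks.

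The clusters differed among themselves in spacing and in the share of strong peaks. Median folds ran from 5.45 in cluster 4 to 7.37 in cluster 6, and the intervals of all 6 overlapped. Median widths ran from 1399 bp in cluster 4 to 2027 bp in cluster 1, again with overlapping intervals. The share of strong peaks ran from 28.6% in cluster 4 (11.7 to 54.6) to 71.8% in cluster 6 (61.4 to 80.2), and these intervals did not overlap. It was above the 39.5% of the rest in 5 clusters and below it in cluster 4, and the intervals of clusters 1 and 4 held that value. The density ran from 13.40 peaks per Mb in cluster 2 (10.3 to 17.1) to 30.6 in cluster 5 (22.8 to 40.1), and the intervals of these clusters did not overlap. The median gap was 39.0 kb in cluster 2 and 17.4 kb in cluster 6, whose intervals did not overlap either.

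**Figure D3:**
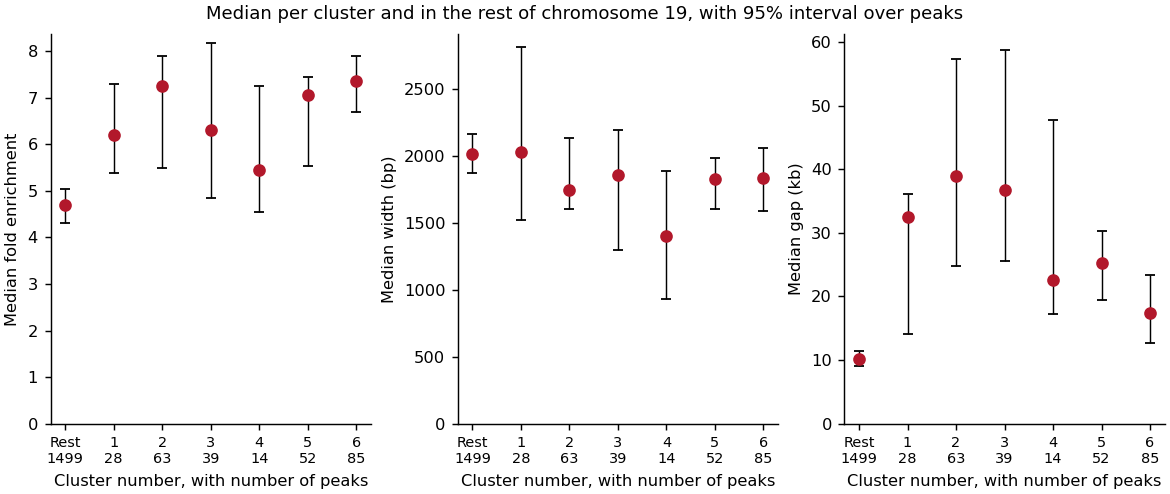
Median fold enrichment (left), median width in bp (middle) and median gap in kb (right) of the peaks in the rest of chromosome 19 and in clusters 1 to 6, with the number of peaks under each label; bars are 95% binomial intervals of the median over peaks of 1 library. All 6 median folds lie above the 4.69 of the rest and all 6 median gaps above its 10.1 kb, while the median widths lie on both sides of its 2013 bp.

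Cluster 1 held 28 peaks and had no gap of 100 kb or more. Its strongest peak (chr19:12034376-12037843) was 3468 bp wide with a fold of 14.1 and ranked 280 by fold in the genome. The second was also the widest of the cluster (chr19:12590232-12596307, 6076 bp, fold 10.4). In RefSeq order ZNF443 stands in an unbroken run of 24 zinc finger genes, from ZNF627 to ZNF791. The share of strong peaks was 53.6% (35.8 to 70.5), an interval that holds the 39.5% of the rest of the chromosome.

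Cluster 2, the longest at 4.7 Mb, held 63 peaks, and its middle was the emptiest part of all clusters. From 21.7 to 22.7 Mb there were 7 peaks and from 22.7 to 23.7 Mb 6, against 19 in its first Mb and 21.4 per Mb in its last part. The longest gap of all clusters, 1062778 bp, ran from 22236460 to 23299237, and a further gap of 199510 bp ended just before it, with a single peak between them (chr19:22234882-22236459, 1578 bp, fold 7.43). The median folds of these 13 peaks were 8.65 in the first stretch and 7.46 in the second, with 9 strong peaks and 2 with a fold below 3 (2.21 and 2.64). The strongest peak of the cluster (chr19:20959086-20960129) spanned only 1044 bp at a fold of 12.9, and it ranked 589 by fold but 34695 by width. The next (chr19:20009617-20014119) had 4503 bp and a fold of 12.6. The widest (chr19:23977948-23986974) had 9027 bp and a fold of 9.50, and lay in the last 0.7 Mb of the cluster.

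**Figure D4:**
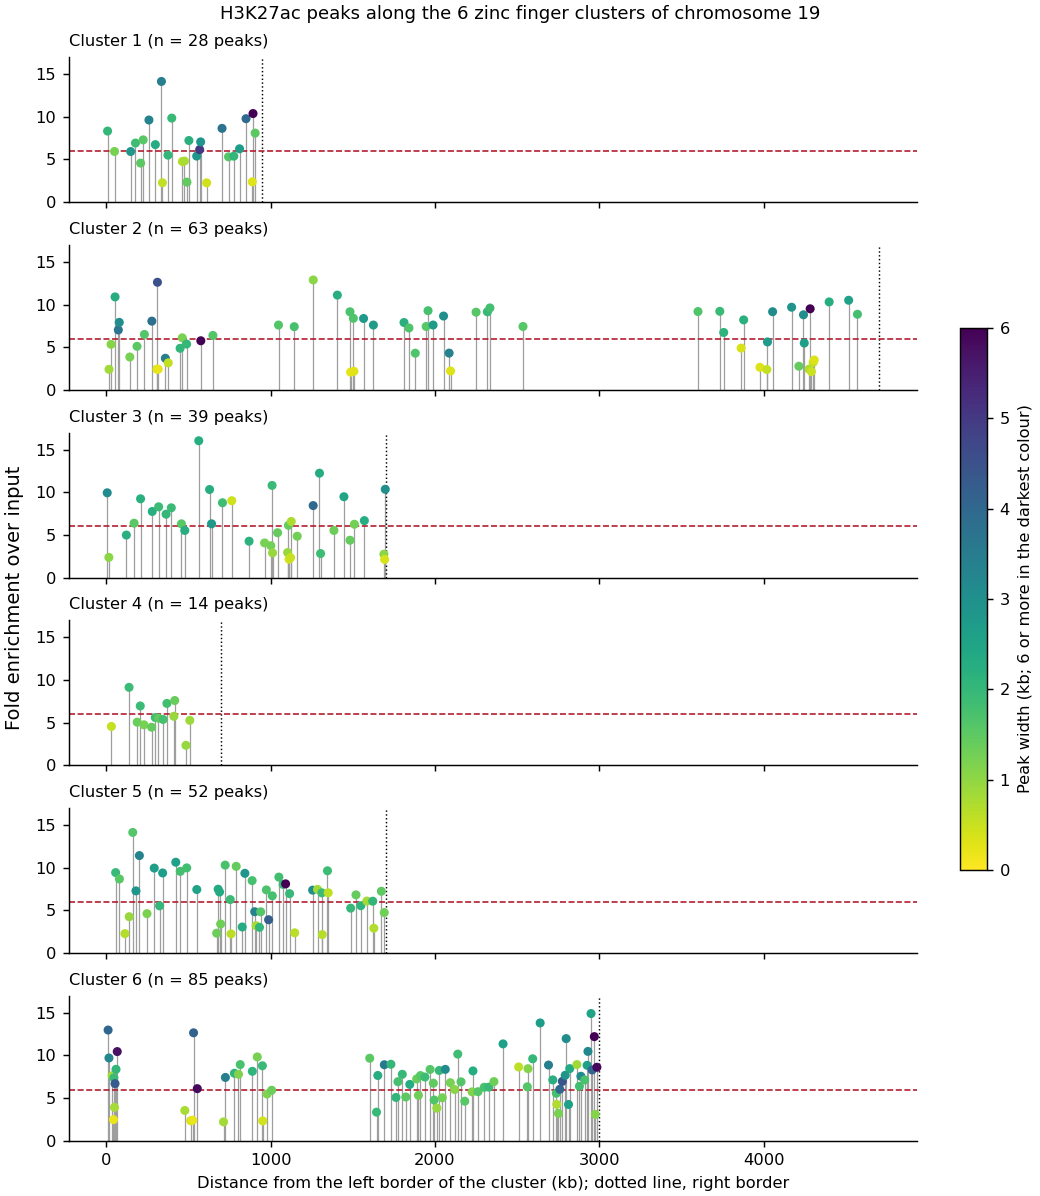
Peaks along the 6 clusters, each drawn as a stem at its distance in kb from the left border of the cluster (x axis), with fold enrichment over input as height (y axis) and width as colour; the dashed line is a fold of 6 and the dotted line the right border. The longest empty stretch is the 1062778 bp gap of cluster 2, and the right end of cluster 6 is the most crowded.

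Cluster 3 held 39 peaks and the strongest peak of all clusters (chr19:37262071-37264361), with a fold of 16.03 over 2291 bp, which ranked 104 in the genome. Its second peak (chr19:37996421-37998730) had a fold of 12.2 over 2310 bp. The widest peak of the cluster spanned 4000 bp (chr19:37957254-37961253, fold 8.44). Strong peaks numbered 13 of 18 in the first Mb and 9 of 21 in the remaining 0.7 Mb.

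Cluster 4 had the lowest median fold and the narrowest median width, with 14 peaks between 537 and 1914 bp wide and none of fold 10 or more. Its strongest and widest peak was the same one (chr19:44438215-44440128, 1914 bp, fold 9.13), followed by chr19:44716295-44717682 (1388 bp, fold 7.59). From there folds went down to 2.34, and 4 of 14 peaks (28.6%) were strong, a lower share than the 39.5% of the rest of the chromosome. Of its 13 gaps, 10 were between 10 and 50 kb. With 14 peaks, a share of strong peaks from 11.7 to 54.6% is within counting error.

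Cluster 5, with 52 peaks, had 36 of its 51 gaps between 10 and 50 kb, 70.6% (57.0 to 81.3). Its strongest peak (chr19:52510876-52512475) reached a fold of 14.1 over 1600 bp, and the second (chr19:52550285-52553628) 11.4 over 3344 bp. This cluster also held the widest peak of all, chr19:53435624-53447244, of 11621 bp with a fold of 8.10. That peak ranked 1696 by width in the genome.

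Cluster 6 held 85 peaks and the highest share of strong ones, 71.8% (61.4 to 80.2), against 39.5% in the rest of the chromosome. The peaks were crowded at its telomeric end, with 43 in the last Mb, 33 of them strong, and 18 in the Mb before. The strongest (chr19:59048250-59050774) had a fold of 14.9 over 2525 bp and the second (chr19:58738712-58741404) 13.8 over 2693 bp. The widest (chr19:59065498-59073391) had 7894 bp and a fold of 12.2. From the peak at the distal A1BG start to the end of the chromosome there were 16 peaks, of which 14 were strong. In RefSeq order 15 protein-coding genes follow A1BG there, of which 7 are zinc finger genes. TRIM28, the corepressor of KRAB zinc finger proteins, is also among them. The peaks were not assigned to these genes, whose hg19 positions were not used here.

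The long gaps of cluster 6 were 595013 bp (57107477 to 57702489) and 407800 bp (56170174 to 56577973). The second of these held the whole of EPN1. In RefSeq order EPN1 is followed by NLRP9, RFPL4A, RFPL4AL1, NLRP11, NLRP4, NLRP13, NLRP8 and NLRP5, a group that includes NLRP genes known from oocytes and early embryos, before the zinc finger genes ZNF787 and ZNF444. Which of these lie inside the gap was not examined. Between EPN1 and A1BG the table lists 79 protein-coding genes, of which 56 (70.9%) are zinc finger genes. The 2.65 Mb between them in hg19 held 59 peaks, 39 of them strong, which is 0.747 peaks per gene. The whole of chromosome 19 had 1780 peaks and 1451 protein-coding genes. Between EPN1 and A1BG the mean gene spacing was 33.6 kb per protein-coding gene. The median gap between peaks of this stretch was 24.6 kb. It is not comparable with that mean, because long gaps weigh little on a median.

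The nearest peaks on both sides of the borders covered a wide range of folds. The nearest peaks inside the 12 borders, 2.27 to 191.2 kb from them, had folds from 2.41 to 12.97 (median 8.47) and widths from 537 to 5868 bp. The 11 nearest peaks outside had folds from 2.19 to 11.5 (median 4.41) and widths from 326 to 5961 bp, with no peak beyond the last border. Of these, 9 lay between 1.47 and 69.0 kb from the border, that of cluster 5 lay 295.8 kb away on the right, and that of cluster 2 lay 3871 kb away, across the centromere.

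Seen across the genome, several bands that hold part of a cluster had narrow strong peaks. Of 442 bands with at least 10 strong peaks, 19p12 had the lowest median width of strong peaks, 1960.5 bp (n = 32), and 19q13.43 the second, 2006 bp (n = 54). 19q13.12 ranked 4 (2352 bp, n = 42), 19q13.41 ranked 5 (2374 bp, n = 35) and 19q13.31 ranked 12 (2574 bp, n = 13). Bands also hold strong peaks outside the clusters, since cluster 3 has only 22 strong peaks and cluster 4 only 4. 19q13.13, at the end of cluster 3, had fewer than 10 strong peaks and was not ranked. By the share of strong peaks, 19q13.43 ranked first (71.1%) and 19p12 ranked 3 (59.3%). The others ranked 14 (19q13.41), 20 (19q13.12), 21 (19p13.2), 36 (19q13.42) and 55 (19q13.31 and 19p13.11, both 37.1%). By width the remaining ranked bands touched by a cluster stood farther back, with 19q13.42 at 37 (3008.5 bp), 19p13.2 at 44 (3112 bp) and 19p13.11 at 71 (3323 bp). These ranks are descriptions of 1 library.

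**Figure D5:**
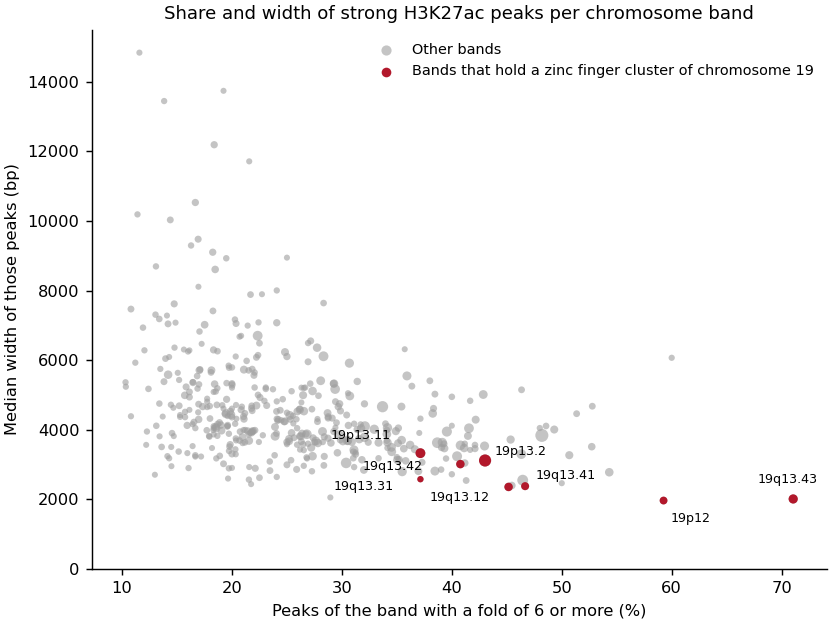
Each point is 1 of 442 chromosome bands with at least 10 strong peaks, with the share of its peaks that have a fold of 6 or more on the x axis (%) and the median width of those peaks on the y axis (bp); larger points have more strong peaks. Red points are bands of chromosome 19 that hold part of a cluster, of which 19q13.43 and 19p12 lie at the lower right, at 2006 and 1960.5 bp.

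The RefSeq start sites of the zinc finger genes of chromosome 19 shared some short sequences more often than those of other genes. In the 250 bases before the start, CCGGAA, the core of ETS-family sites, was found on either strand in 40.4% of the 225 zinc finger genes with a sequence, in 18.8% of 960 other genes of the chromosome and in 19.3% of all 15843 protein-coding genes. CCAAT, the site of the factor NF-Y, was found in 50.2%, 36.4% and 34.5%. GGGCGG, the GC box bound by SP1, was found in 64.0%, 63.9% and 56.0%. The median number of CpG in these stretches was 16 for the zinc finger genes and 17 for the other genes of chromosome 19. Their median G and C content was 59.6% and 63.6%, against 62.4% for all protein-coding genes. A ratio of observed to expected CpG over 0.6 was found in 70.2% of the zinc finger genes. It was found in 57.7% of the other genes of the chromosome and in 63.4% of all. Of the sequences printed above, that of ZNF443 held GGGCGG and CCAAT, and those of EPN1 and A1BG held GGGCGG and CCGGAA. These are matches of letters, and the genes were not placed in the hg19 clusters.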

How the data were processed

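The members, the comparisons and the gene lists were chosen with earlier results of these data known. Bowtie2 and MACS2 with hg19 are named in the submitters' processing notes. Per the file headers, MACS2 2.1.0.20140616 called broad peaks in the ChIP library against input (62626946 and 74212738 tags before filtering), with a q-value cutoff of 0.05 and 1 tag kept per position, which caps the strongest peaks. Read alignment is otherwise not given in the sources used here. The deposited fold enrichment is the caller's ratio of ChIP pileup to local control, and the deposited -log10 p and -log10 q are its values per peak. They are the authors' values, used only to describe and filter peaks. The deposited pileup column was below 0 and was not used.

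Gaps were counted only between neighbours in the same cluster or the same stretch between clusters. Densities outside the clusters leave out the 4.2 Mb of centromeric bands, though not the 2 peaks in them. The input level was solved as the control level whose Poisson tail gives both the fold and the p-value of a peak (after adding 1 to ChIP and control), and is approximate for broad peaks. Medians carry order-statistic binomial intervals. The calculations were tested on simulated data. Peaks were named by rule: the 2 strongest and the widest per cluster, and the longest gaps. The narrow strong peaks, the bands and the single peak between long gaps were picked with their values in view.

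Bands came from circlize 0.4.16. Gene positions in hg19 came from GenomicFeatures 1.54.1 (a known-gene sample) and from pyranges 0.1.4 (390 genes, build not stated). In 14 of 19 gene pairs up to 2 Mb apart, a pyranges gene and a known gene of hg19 were shifted against GRCh38.p14 by the same amount within 100 bp, and no pyranges gene stood at its GRCh38 position, so its build was taken as hg19. A full hg19 annotation and sequence were not used here. Gene order, symbols and promoter sequences are from RefSeq (GRCh38.p14), and 225 of 260 zinc finger genes had a sequence (the first listed per gene). The calculations ran in Python 3.11.15 with scipy 1.17.1, pandas 2.3.3 and numpy 2.4.6, and plots in matplotlib 3.10.9.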

Additional observations from a re-analysis of the deposited data

How the results depend on the processing

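Stricter thresholds removed weak peaks, mostly outside the clusters. With a -log10 q of 5 or more the clusters and the rest had 18.8 and 22.4 peaks per Mb, median widths of 1931 and 3014 bp, median folds of 7.37 and 6.93, median gaps of 29779 and 19944 bp, and 71.7% and 62.6% strong peaks. At 10 or more these were 17.9 and 18.6 per Mb, 1945 and 3313.5 bp, 7.43 and 7.62, 30700.5 and 23967.5 bp, and 75.4% and 75.5%, with 4.02% and 8.89% covered. Median fold and the share of strong peaks thus changed direction at that threshold, while width, gap and coverage did not. No intervals were computed for the filtered peaks. Coverage was 4.81% with peaks under 3000 bp apart merged and 4.03% with borders moved inward by 100 kb. Among strong peaks only, an alternative chosen after seeing the data, the gap was 37776.5 bp and the width 1996.5 bp. By fold class the widths were 568, 1450, 1956.5 and 2566.5 bp, and by width class the folds were 2.77 (under 1 kb), 6.91, 7.91 and 8.37. The implied pileup in place of fold had a median of 50.04 (rest 32.2). Leaving out 1 cluster at a time gave 20.1 to 27.1 peaks per Mb, coverage of 3.89 to 5.42%, gaps of 25241 to 30011 bp, folds of 6.53 to 6.95, widths of 1787 to 1825 bp and 56.6 to 62.9% strong peaks. Densities above the main interval came from leaving out cluster 2, and longer gaps from leaving out cluster 6. Of 108 alternative values, 81 stayed within the interval of the main value or, for the number of peaks, within 1.5 times. A further 25 moved beyond that interval in the same direction, and 2 changed direction. Staying or moving was judged on the cluster value alone. Changes of the comparison region could not move that value, so they do not check it. Membership by any overlap or of whole peaks left all values unchanged. The implied pileup was judged against the interval of fold, a different unit. Against the flanks within 1 Mb, also chosen after seeing the data, the density outside was 41.0 per Mb, the median fold 4.03 and the median width 1856 bp. No paired analysis was possible because the design has a single ChIP library. With 1 library, differences between clusters have no replicate check.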

Other observations

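Outside chromosome 19, the band 7q11.21, which also holds KRAB zinc finger genes, ranked 6 of 442 by the median width of strong peaks (2393 bp, n = 30), with 45.5% of its peaks strong. Among the first 10 were further bands not chosen for such genes, and whether they hold any was not examined. 11q23.1 ranked 3 (2049 bp, n = 11), 10q24.2 ranked 7 (2432 bp, n = 10), and Xp11.21 and Xp11.22 ranked 8 and 9 (2460 and 2537 bp). 16p13.3 ranked 10 (2546 bp, n = 85). These bands were picked after their values were seen, and several rest on few peaks.

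Strong peaks under 1 kb numbered 8 of 172 in the clusters, 4.65% (95% Wilson interval 2.38 to 8.91), 4 of 592 in the rest of chromosome 19 (0.676%, 0.263 to 1.72) and 123 of 12125 in the genome (1.01%). The narrowest of the 8 was chr19:37463902-37464354 in cluster 3, 453 bp wide with a fold of 9.01, and the next was chr19:58609036-58609639 in cluster 6, 604 bp with a fold of 8.64. The implied input level at these 2 peaks was 4.62 and 4.89, against a median of 6.86 at the strong peaks of the clusters. The lowest level at any cluster peak was 4.11. The part of the input level in their width was not tested.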
